A study of Mus musculus with 18 samples.

Results

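The genes described here encode the subunits of the oxidative phosphorylation complexes, from the nuclear and the mitochondrial genome, in epithelial cells sorted from the mouse ileum. They were chosen by symbol among protein-coding genes: the Nduf subunit genes, Sdha to Sdhd, the Uqcr genes, the Cox4 to Cox8 genes, the Atp5 genes and the mitochondrially encoded mt-Nd, mt-Co, mt-Atp and mt-Cytb genes. The rule found 96 genes among 47729 identifiers, of which 83 were nuclear and 13 mitochondrial. The nuclear genes divided into 35 for complex I, 4 for complex II, 8 for complex III, 19 for complex IV and 17 for complex V. Ndufa4 was placed in complex IV, where its protein is now assigned. The mitochondrial genes divided into 7, 1, 3 and 2 for complexes I, III, IV and V, and complex II has none. A filter on low counts left 91 of the 96, namely 78 nuclear and all 13 mitochondrial genes. Ndufab1 and Cyc1 belong to complexes I and III but their symbols fall outside the rule.

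There were 6 libraries from lactating females at day 7 of lactation, 6 from virgin males and 6 from virgin females, and the labels do not say whether each came from its own animal. The virgin animals were matched to the lactating mice for age, per the labels, which give no strain and no age in weeks. RM3 diet was fed while breeding and RM1 for maintenance and experiment. Epithelial cells were sorted by flow cytometry, and polyadenylated RNA was sequenced in bulk.

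Oxidative phosphorylation moves electrons from NADH and succinate to oxygen and uses the resulting proton gradient to make ATP. Complexes I and II take up the electrons, complex III passes them to cytochrome c, complex IV hands them to oxygen and complex V, the ATP synthase, uses the gradient. Most subunits are made in the cytosol from nuclear genes and imported, whereas a small core is made inside mitochondria from mitochondrial DNA. In the gut the absorptive enterocytes of the villus are rich in mitochondria, and dividing crypt cells feed the villus from below.

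Nuclear genes of these complexes are classically linked to the transcription factors NRF1, GABP, YY1 and ERR alpha, so the promoters were searched for their core letters. RefSeq windows of 300 bases (GRCm38.p6), from 250 before to 50 after an annotated start, were found for 68 of the 83 nuclear genes (73 windows). On either strand, GCGCATGCG, the NRF1 core, stood in 11% of these windows and in 1.75% of all 32851 windows. The GABP (ETS) core CCGGAAG stood in 21.9% of the genes' windows and in 8.86% of all windows. AAGATGGCG, the YY1 letters, stood in 9.59% of the genes' windows and in 1.4% of all windows, and TCAAGGTCA, the ERR core, in 2.74% of the genes' windows and in 0.423% of all windows. CCAAT stood in 42.5% of the genes' windows and in 37.4% of all windows, and TATAAA in 11% of the genes' windows and in 13.6% of all windows. The genes' windows had a median GC content of 57.3%, and all windows 52.7%, and the shares were not adjusted for this. A match is a description of letters and not of binding. The 4 windows shown are given below: Cox7a1 and Ndufa11 are among the genes that moved with the cell cycle score, whereas Cox6a1 and Sdhd are complex IV and complex II genes that did not pass that test. Capitals mark matches to the NRF1, GABP, YY1 and ERR letters, and CCAAT and TATAAA are left unmarked, 5′ to 3′ on the gene's strand. Cox6a1 (chr5:115348909-115349208, minus strand) holds the NRF1 letters on both strands in overlap, starting at -162 from the annotated start, and the GABP letters in reverse at -16. Sdhd (chr9:50603800-50604099, minus strand) holds the GABP letters in reverse at -46 and the ERR letters in reverse at 36. Ndufa11 (chr17:56717512-56717811, plus strand) holds the NRF1 letters on both strands in overlap at -60. In Cox7a1 (chr7:30183921-30184220, plus strand) the NRF1, GABP, YY1 and ERR letters are not in the window.
Cox6a1: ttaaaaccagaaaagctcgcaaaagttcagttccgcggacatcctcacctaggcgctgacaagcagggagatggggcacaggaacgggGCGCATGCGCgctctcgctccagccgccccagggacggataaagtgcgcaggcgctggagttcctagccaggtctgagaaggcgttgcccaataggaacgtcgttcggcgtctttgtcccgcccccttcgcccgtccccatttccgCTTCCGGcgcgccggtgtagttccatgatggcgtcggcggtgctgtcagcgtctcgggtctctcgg
Sdhd: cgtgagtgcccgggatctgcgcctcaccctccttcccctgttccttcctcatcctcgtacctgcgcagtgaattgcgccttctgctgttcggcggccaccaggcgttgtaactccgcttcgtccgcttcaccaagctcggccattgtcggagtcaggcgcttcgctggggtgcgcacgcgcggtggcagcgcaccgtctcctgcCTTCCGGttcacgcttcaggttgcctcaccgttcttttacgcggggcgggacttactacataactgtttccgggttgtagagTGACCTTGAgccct
Ndufa11: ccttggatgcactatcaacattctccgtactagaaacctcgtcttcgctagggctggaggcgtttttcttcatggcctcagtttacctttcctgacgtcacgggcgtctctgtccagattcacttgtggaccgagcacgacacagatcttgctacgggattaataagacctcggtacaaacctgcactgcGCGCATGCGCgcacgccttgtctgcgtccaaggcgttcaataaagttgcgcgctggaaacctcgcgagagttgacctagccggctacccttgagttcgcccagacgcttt
Cox7a1: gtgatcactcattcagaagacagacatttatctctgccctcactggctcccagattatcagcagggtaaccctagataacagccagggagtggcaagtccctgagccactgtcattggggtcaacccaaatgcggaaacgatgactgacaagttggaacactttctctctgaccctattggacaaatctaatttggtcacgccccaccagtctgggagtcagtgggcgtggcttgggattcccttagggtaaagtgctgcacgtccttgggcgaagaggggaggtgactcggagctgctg

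Libraries held between 34577104 and 49039300 counts each and detected 19363 to 21946 genes. Values are CPM, counts normalised to library size, scaled with TMM factors that ran from 0.814 to 1.15, and 3 counts correspond to 0.0549 to 0.0882 CPM. Libraries of a group differed in their content of dividing cells. The mean log2 CPM of 35 cell cycle genes ranged over 3.46 to 5.07 in lactating females, 4.52 to 4.94 in virgin males and 3.52 to 5.03 in virgin females. The 8 general epithelial markers summed to 14200 to 23500 CPM over all libraries. Immune markers summed to 5.43 to 44.9 CPM, stromal and endothelial markers to 7.08 to 16.9 CPM, enteric nerve markers to 0.176 to 0.75 CPM and red cell markers to at most 3.47 CPM. The 10 muscle markers summed to 21.2 to 161 CPM in lactating females, 6.65 to 14.5 CPM in virgin males and 8.49 to 54.8 CPM in virgin females. The direction of a small difference depended on the TMM factors, which were lowest in lactating 1, at the lowest cell cycle score, and highest in lactating 2, at the highest. With library totals alone, an alternative chosen after seeing the data, the median log2 difference of all genes was -0.02 in lactating against virgin females, 0.15 in virgin males against virgin females and -0.19 in lactating females against virgin males. In bulk RNA, fewer cells of a type cannot be told apart from less RNA per cell.

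The mitochondrial transcripts were far more abundant than the nuclear ones. Per exonic kilobase, the 13 mitochondrial genes had a median mean level of 3120 CPM, the 78 nuclear genes 82 CPM and all 15517 tested genes with an annotated length 3.47 CPM. Of the 13, 12 ranked within the top 55 genes by this measure. The 13 genes took 4.26% to 7.34% of a library's counts and the nuclear genes 0.951% to 1.72%. The cytochrome oxidase genes led, with mt-Co1 at 12600 and mt-Co2 at 11300 CPM per kilobase, followed by mt-Atp6 of the ATP synthase at 9870 and mt-Co3 at 8900. Next came mt-Atp8 at 4870 and mt-Cytb, the complex III subunit, at 4640 CPM per kilobase. The complex I genes were lower, between 1570 CPM per kilobase for mt-Nd5 and 3120 for mt-Nd1. The lowest was mt-Nd6, the 1 member encoded on the light strand, at 50.8 CPM per kilobase.

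Of the mitochondrial genes, 7 share sequence with annotated pseudogenes on chromosome 1, and the deposited counts of these copies followed the genes. In every library the copy of mt-Co2, Gm28661 (chr1:24614885-24615565, GRCm38), carried 0.9973 to 1.0044 times the count of mt-Co2. The copies of mt-Co3, mt-Nd3 and mt-Nd4l were between 0.9956 and 1.0116 times the gene. The copy of mt-Atp6 carried 1.22 to 1.35 times the gene's count, that of mt-Nd4 0.45 to 0.592 times and that of mt-Co1 0.32 to 0.503 times. The 8 such copies held 2.44% to 4.44% of a library's counts, so levels of these 7 genes are uncertain. Of the 96 genes, 22 had a near-identical copy elsewhere (at least 97% identity over 150 bases), and in 16 the copies held more than 5% of the gene's own count. Among the nuclear genes this share was highest for Atp5g2, a subunit c gene, at 62.8%, Ndufb4 at 38.3%, Atp5l at 29.9% and Cox7c at 26.8%. The small genes mt-Atp8 and mt-Atp6 overlap by 43 bases, which is 21.1% of mt-Atp8.

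Among nuclear genes, complex IV had the highest median, 142 CPM per kilobase over 14 genes, and complex I the lowest, 51.2 over 35. Complex III stood at 131, complex II at 101 and complex V at 84.8 CPM per kilobase. The highest nuclear genes were Cox6b1 at 427, Atp5b and Atp5a1, the catalytic beta and the alpha subunit of the ATP synthase, at 404 and 403, and Cox6a1 at 402 CPM per kilobase. The lowest were Ndufb2 of complex I at 2.19 and Atp5s at 2.4. Lengths are those of all annotated exons joined, so genes with rarely used exons are understated. Within a group a nuclear gene typically varied by an SD of 0.3 on the log2 scale and a mitochondrial gene by 0.273, beside 0.323 for all tested genes.

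**Figure D1:**
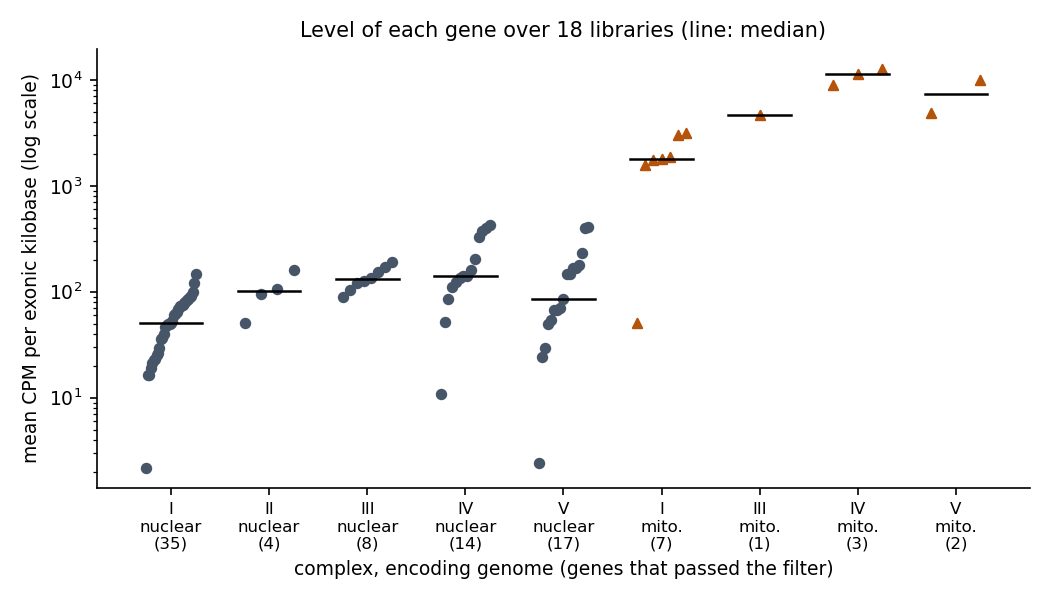
Mean CPM per exonic kilobase (log axis) of each gene that passed the filter, by complex and encoding genome, over 18 libraries. Circles are nuclear genes, triangles mitochondrial genes and lines medians. All mitochondrial genes except mt-Nd6 (50.8) lie at 1570 or above, and the highest nuclear gene, Cox6b1, lies at 427.

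Several complex IV subunits exist as isoforms with restricted expression, and the ileal epithelium differed in which of them it carried. Cox4i2, Cox7b2, Cox8b and Cox8c, known from lung, testis and muscle, had 7, 0, 1 and 0 counts over all 18 libraries, and Cox6a2, the heart and muscle form, had 48. Each stayed below the filter. By contrast Cox7a1, known as the heart and muscle form of subunit 7a, stood at 142 CPM per kilobase, beside 142 for Cox7a2, the ubiquitous form. Cox6b2, known from testis, stood at 10.8 CPM per kilobase beside 427 for Cox6b1. Cox7a1 had 52.7, 68.9 and 155 CPM in the lowest, median and highest lactating library, 48, 57.8 and 74.6 CPM in virgin males and 42.9, 71 and 152 CPM in virgin females. The groups overlapped, with the highest libraries in both female groups. The summed muscle markers were highest in lactating females, and Acta1, the skeletal actin, made up most of this sum with 20.9 to 160 CPM there. Of the 10 muscle markers, Ckm, Cnn1 and Tnnt3 were at 0 in all lactating libraries, Actg2, Myh1 and Tnnt3 in all virgin male libraries and Cnn1 and Tnnt3 in all virgin female libraries. Of the 2 muscle markers tested, 1 passed as higher in lactating females than in virgin males (edgeR adjusted p = 0.0113), where 0.764% of all genes passed. Cox6a2 and Cox8b, the muscle isoforms, were at or near 0. The part of muscle RNA in the level of Cox7a1 was not tested.

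Lactating and virgin females were compared to see how these genes differ in the maternal ileum at day 7 of lactation. None of the 91 genes passed the edgeR test at an adjusted p under 0.05, where 0.0578% of all 15572 genes did. At an unadjusted p under 0.05 there was 1 of 91, Ndufc1, beside 6.44% of all genes, and DESeq2 and limma voom also called 0. The nuclear genes leaned higher: 70 of 78 had a log2 difference above 0 with a median of 0.12, beside 49.4% and a median of -0.003 over all genes. The count was 67 of 78 with library totals alone, against 45.1% of all genes. The nuclear genes took 1.44 ± 0.24% of the counts in lactating females and 1.36 ± 0.22% in virgin females (SD, n = 6 each), with 4 of 6 lactating values over the average of the virgin females. The lean was small and rested on few libraries. Without lactating library 5, the median of the nuclear genes was -0.001, without virgin female library 2 it was 0.04, and with voom weights it was 0.03. The 13 mitochondrial genes did not share it, with 6 of 13 above 0 and a median of -0.003. Of the crypt stem markers 14 of 15 had a log2 difference below 0 (50.6% of all genes), with a median of -0.22. The cell cycle genes went the other way, with 27 of 35 above 0 (49.4% of all genes) and a median of 0.09. Of the enterocyte markers 7 of 15 were above 0, with a median of -0.008. Of the villus tip markers 7 of 10 were above 0 (49.4% of all genes), with a median of 0.29. Their mean log2 CPM lay above every virgin female library in 4 of 6 lactating libraries and below the virgin female mean in 2. The mean log2 CPM of the early response genes that dissociation is known to induce was 7.63 ± 0.23 in lactating females and 7.99 ± 0.25 in virgin females (SD, n = 6 each), and each of the 6 lactating values was under the average of the virgin females. The part of these in the nuclear values was not tested.

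Within complex I the 28 accessory subunits that surround the enzyme had a median of 0.17, and the 7 nuclear core subunits, which carry the redox centres, a median of 0.10. Ndufc1, an accessory subunit, had the smallest p of the nuclear genes. It had 29.5, 38.6 and 58.6 CPM in the lowest, median and highest library of lactating females, against 22.6, 32.3 and 39.2 CPM in virgin females. The log2 difference was 0.37 ± 0.17 (SE), with an edgeR adjusted p of 0.774, and the groups overlapped. Ndufa2, another accessory subunit, differed by 0.42 ± 0.21 (edgeR adjusted p = 0.8) and Ndufb6 by 0.32 ± 0.16 (adjusted p = 0.8). Ndufb6 shares 39% of its exon length with Smim27 on the opposite strand, and the strand setting of the counting is not known.

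The 4 genes of complex II, which also serves the citric acid cycle as succinate dehydrogenase, had a median of 0.08. Sdha, the flavoprotein, had 375, 413 and 529 CPM in lactating females, against 351, 445 and 503 CPM in virgin females, and a log2 difference of -0.04 ± 0.11. Sdhb, Sdhc and Sdhd differed by 0.05 ± 0.17, 0.14 ± 0.13 and 0.11 ± 0.14. Complex III had a median of 0.11 over 8 genes. Uqcrb had 134, 186 and 276 CPM in lactating females, against 110, 161 and 253 CPM in virgin females, and Uqcrfs1, the Rieske iron-sulfur protein, 150, 177 and 251 CPM in lactating females, against 131, 172 and 203 CPM in virgin females. In each of these genes the groups overlapped over most of their range.

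The 14 nuclear genes of complex IV had a median of 0.13. Cox5a had 201, 268 and 396 CPM in lactating females, against 175, 219 and 278 CPM in virgin females, and a difference of 0.31 ± 0.16 (edgeR adjusted p = 0.815). The largest nuclear difference by size was that of Cox6b2, 1.05 ± 0.61 (adjusted p = 0.853), with 5.38, 18.8 and 31 CPM in lactating females, against 1.85, 6.5 and 19.8 CPM in virgin females. The 17 genes of complex V also had a median of 0.13. Atp5e, the epsilon subunit, differed by 0.40 ± 0.23 (adjusted p = 0.853), with 94.4, 126 and 263 CPM in lactating females, against 66.6, 101 and 163 CPM in virgin females. The catalytic core genes Atp5a1 and Atp5b both differed by 0.01 (SE 0.14 and 0.13).

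**Figure D2:**
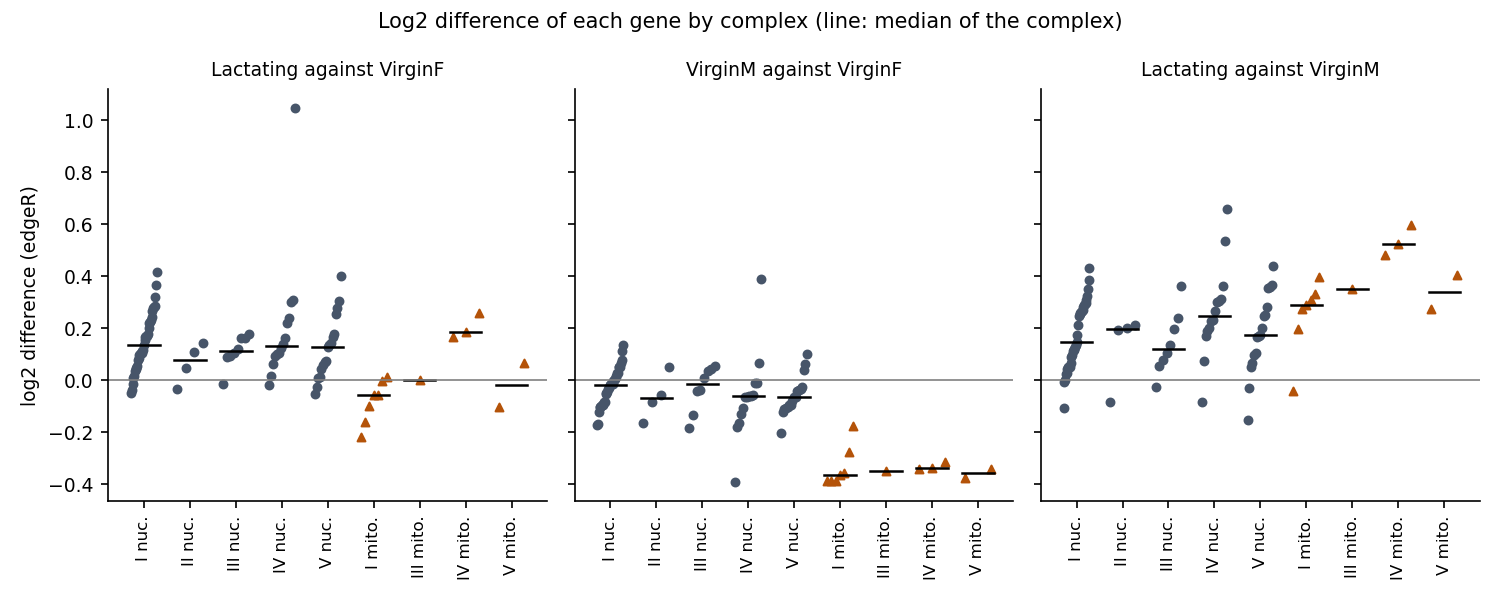
Log2 difference of each of the 91 genes in the 3 group comparisons, by complex and encoding genome. Circles are nuclear genes, triangles mitochondrial genes and lines medians. In virgin males against virgin females all 13 triangles lie below 0 (12 with library totals alone), with a median of -0.35, and in lactating females against virgin males 12 of 13 lie above it, with a median of 0.33. With library totals alone these medians were -0.18 and 0.125.

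Between the sexes outside reproduction, the mitochondrial genes had the larger median difference. None of the 91 genes passed in virgin males against virgin females, where 0.0835% of all genes did, and DESeq2 and voom also called 0. All 13 mitochondrial genes had a lower fitted level in males (52% of all genes), with a median log2 difference of -0.35 and 6 of 13 at an unadjusted p under 0.05 (8.32% of all genes). With library totals alone 12 of the 13 were lower, with a median of -0.18, as were 3978 of all 15572 genes. The 78 nuclear genes had a median of -0.04, with 22 above 0 (48% of all genes) and 0 at an unadjusted p under 0.05. With library totals alone 76 of the 78 were above 0 (74.5% of all genes), and the nuclear share of counts was 1.49 ± 0.13% in virgin males and 1.36 ± 0.22% in virgin females (SD, n = 6 each), with 5 of 6 male libraries above the female mean. Relative to the median of all genes, the nuclear median was -0.03 with TMM factors and -0.02 without, and the mitochondrial median -0.33 with either. The lowest p was that of mt-Nd2, a complex I core subunit. It had 1250, 1540 and 1980 CPM in virgin males, against 1900, 2030 and 2170 CPM in virgin females, a log2 difference of -0.36 ± 0.13 (edgeR adjusted p = 0.565). Male library 1 was the only male library within the female range. For mt-Cytb the values were 3670, 4400 and 5540 CPM in virgin males, against 5240, 5780 and 6060 CPM in virgin females (-0.35 ± 0.15, adjusted p = 0.565), and male library 1 again was the highest male.

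The cell makeup of the libraries moved the same way. All 15 enterocyte markers had a lower fitted level in males, with a median log2 difference of -0.66, and 34 of 35 cell cycle genes a higher one, with a median of 0.35. With the cell cycle score as a covariate, the median of the mitochondrial genes was -0.21 and that of the nuclear genes 0.04. The part of cell makeup in the difference was not otherwise tested.

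Lactating females and virgin males differ in sex and reproductive state together, and this comparison shares its libraries with both others. Again none of the 91 genes passed with edgeR, where 0.764% of all genes did. At an unadjusted p under 0.05 there were 8 of 91 (15.9% of all genes), of which 7 were mitochondrial. DESeq2 called 1, mt-Co2 (0.61, adjusted p = 0.0442), and voom called 0. The 3 mitochondrial genes of complex IV, which form the catalytic core of cytochrome oxidase, had the highest median, 0.53. The gene mt-Co2 had 5530, 9500 and 12500 CPM in lactating females, against 5050, 6100 and 7080 CPM in virgin males, a log2 difference of 0.60 ± 0.20 (edgeR adjusted p = 0.194). Of the lactating libraries, 4 lay above every male library and 2 within the male range. For mt-Co1 the values were 14300, 22900 and 34300 CPM in lactating females, against 13100, 15100 and 18400 CPM in virgin males (0.53 ± 0.21, adjusted p = 0.256), and for mt-Co3 5010, 8450 and 10200 CPM in lactating females, against 5190, 5580 and 6520 CPM in virgin males (0.48 ± 0.18, adjusted p = 0.226).

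The nuclear genes also leaned higher in lactating females than in virgin males, with 70 of 78 above 0 (48.9% of all genes) and a median of 0.20. The count was 38 of 78 with library totals alone (25.8% of all genes), and the nuclear share of counts was 1.44 ± 0.24% in lactating females and 1.49 ± 0.13% in virgin males (SD, n = 6 each), with 2 of 6 lactating libraries above the male mean. The mitochondrial median was 0.33 with TMM factors and 0.125 with library totals alone. Relative to the median of all genes, the nuclear median was 0.20 with TMM factors and 0.19 without, and the mitochondrial median 0.34 with them and 0.32 without. The 1 nuclear gene at an unadjusted p under 0.05 was Cox5a, with 201, 268 and 396 CPM in lactating females, against 162, 209 and 247 CPM in virgin males (0.36 ± 0.16, edgeR adjusted p = 0.292). Without lactating library 5 the nuclear median was 0.06, and with the cell cycle score as a covariate it was 0.11, when the mitochondrial median was 0.26. In the same comparison all 15 enterocyte markers had a higher fitted level in lactating females, with a median of 0.66, and their part in the mitochondrial values was not otherwise tested. No gene of the set separated the groups without overlap in any of the 3 comparisons, which 0.289%, 0.43% and 1.34% of all genes did (lactating against virgin females, virgin males against virgin females, lactating females against virgin males).

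Averaging the log2 CPM of the genes in each library shows the sets apart. The 78 nuclear genes averaged 7.00 ± 0.31 in lactating females, 6.83 ± 0.14 in virgin males and 6.85 ± 0.32 in virgin females (SD, n = 6 each). The 13 mitochondrial genes averaged 11.14 ± 0.30 in lactating females, 10.81 ± 0.22 in virgin males and 11.15 ± 0.14 in virgin females. The lowest and highest nuclear means were those of virgin female 2 at 6.36 and lactating 5 at 7.53. The lowest and highest mitochondrial means were those of virgin male 2 at 10.52 and lactating 1 at 11.50. The gap between the sets within a library, which no scaling factor touches, was 4.14 ± 0.40 in lactating females, 3.98 ± 0.35 in virgin males and 4.30 ± 0.31 in virgin females. The gap ran from 3.48 in virgin male 2 to 4.87 in virgin female 2. The group differences of the gap were -0.16 for lactating against virgin females, -0.32 for virgin males against virgin females and 0.16 for lactating females against virgin males, each smaller than the pooled SD of the libraries (0.356, 0.329 and 0.374). Single libraries moved them. Without one library at a time the first ran from -0.256 without lactating 1 to -0.042 without virgin female 2, and the second from -0.417 without virgin male 1 to -0.206 without virgin female 2. The third ran from 0.064 without virgin male 2 to 0.274 without lactating 5.

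**Figure D3:**
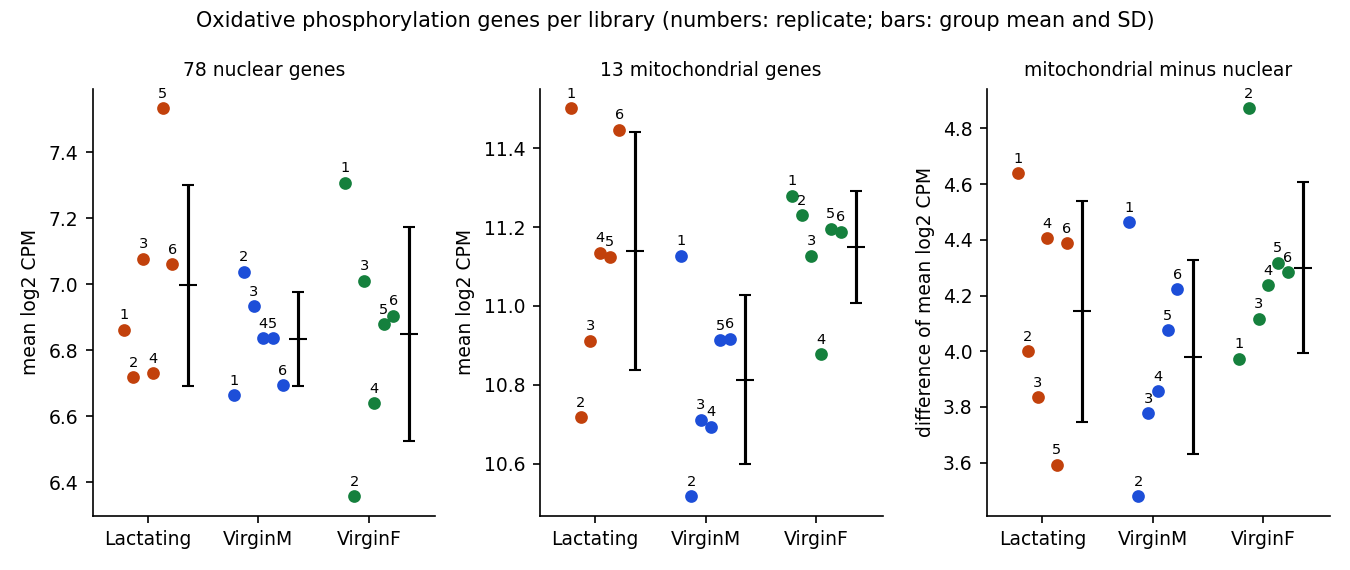
Mean log2 CPM of the nuclear genes, of the mitochondrial genes and their difference in each library, by group. Points are libraries with their replicate number, and bars give the group mean and SD (n = 6). Lactating 5 (7.53) and virgin female 2 (6.36) bound the nuclear panel, and in the mitochondrial panel all 6 male libraries lie below the virgin female mean of 11.15.

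Lactating library 5 stood apart in how the set was made up. Its nuclear mean was the highest of all, and its gap to the mitochondrial mean, 3.59, the smallest of its group. Within the mitochondrial genes it held the highest mt-Co2 of all libraries at 12500 CPM, and the lowest of all for mt-Nd4l at 289 CPM, where the other lactating libraries had 489 to 643 CPM. The same library had 2050 CPM of mt-Nd5, where the other lactating libraries had 2490 to 3720 CPM. It also held the highest Malat1, a nuclear noncoding RNA, at 6816 CPM, where the other 17 libraries had 635.3 to 3802 CPM, and the fewest detected genes, 19363. The part of RNA quality in these values was not tested. The light-strand gene mt-Nd6 was highest in virgin female 2 at 67.3 CPM and virgin male 6 at 58.2 CPM, where the other 16 libraries had 9.55 to 37.6 CPM. The same pair held Gm42418, a noncoding transcript, at 31050 and 29980 CPM, where the others had 1230 to 4477 CPM, and its part in mt-Nd6 was not tested.

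The spread within groups was set against the cell cycle score in a fit with a mean per group, in which a slope is the log2 change per unit of the score. Of the 91 genes 14 passed at an edgeR adjusted p under 0.05, or 15.4%, all lower at a higher score, where 44.1% of all genes passed and 22% passed as lower. This direction depended on the TMM factors. With library totals alone 13 of the 91 passed, 11 as higher and 2, Cox7a1 and Cox6b2, as lower, and these 2 were the calls shared with the 14. Of all 15572 genes 7094 then passed as higher and 1214 as lower. The median slope of all genes was then 0.23, that of the nuclear genes 0.05 and that of the mitochondrial genes 0.07. Relative to the median of all genes, the nuclear median was -0.20 with TMM factors and -0.17 without, and the mitochondrial median -0.19 with them and -0.16 without. Slopes below are with TMM factors unless stated. The count depended on single libraries, with 32 called without lactating 1, 31 without virgin female 2, 7 without lactating 2, 7 without virgin female 1 and 8 without virgin female 4. The nuclear genes had a median slope of -0.21 with 9 of 78 called, and the mitochondrial genes a median of -0.20 with 5 of 13 called. Over all genes the median was -0.003. For scale, 14 of 15 enterocyte markers were called lower with a median slope of -0.87, and 12 of 15 crypt stem markers higher with a median of 1.09.

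Cox7a1 was the gene of the set with the smallest p. Its slope was -0.93 ± 0.18 (edgeR adjusted p = 0.000458), beside -0.22 ± 0.16 (adjusted p = 0.269) for Cox7a2, which is named here after its values were seen. Cox7a1 was at 155, 152 and 122 CPM in lactating 5, virgin female 1 and lactating 1, which had low scores of 3.98, 3.52 and 3.46, and at 57.9 and 48.8 CPM in lactating 2 and virgin female 4, which had the highest scores, 5.07 and 5.03. Virgin female 2 stood off this pattern with 42.9 CPM at a score of 3.95. Cox6b2 had the steepest slope, -1.85 ± 0.52 (adjusted p = 0.00764), on levels between 1.85 and 34.8 CPM. The 2 muscle markers tested also had negative slopes past the threshold, with a median of -1.27, and their part in the slope of Cox7a1 was not tested.

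**Figure D4:**
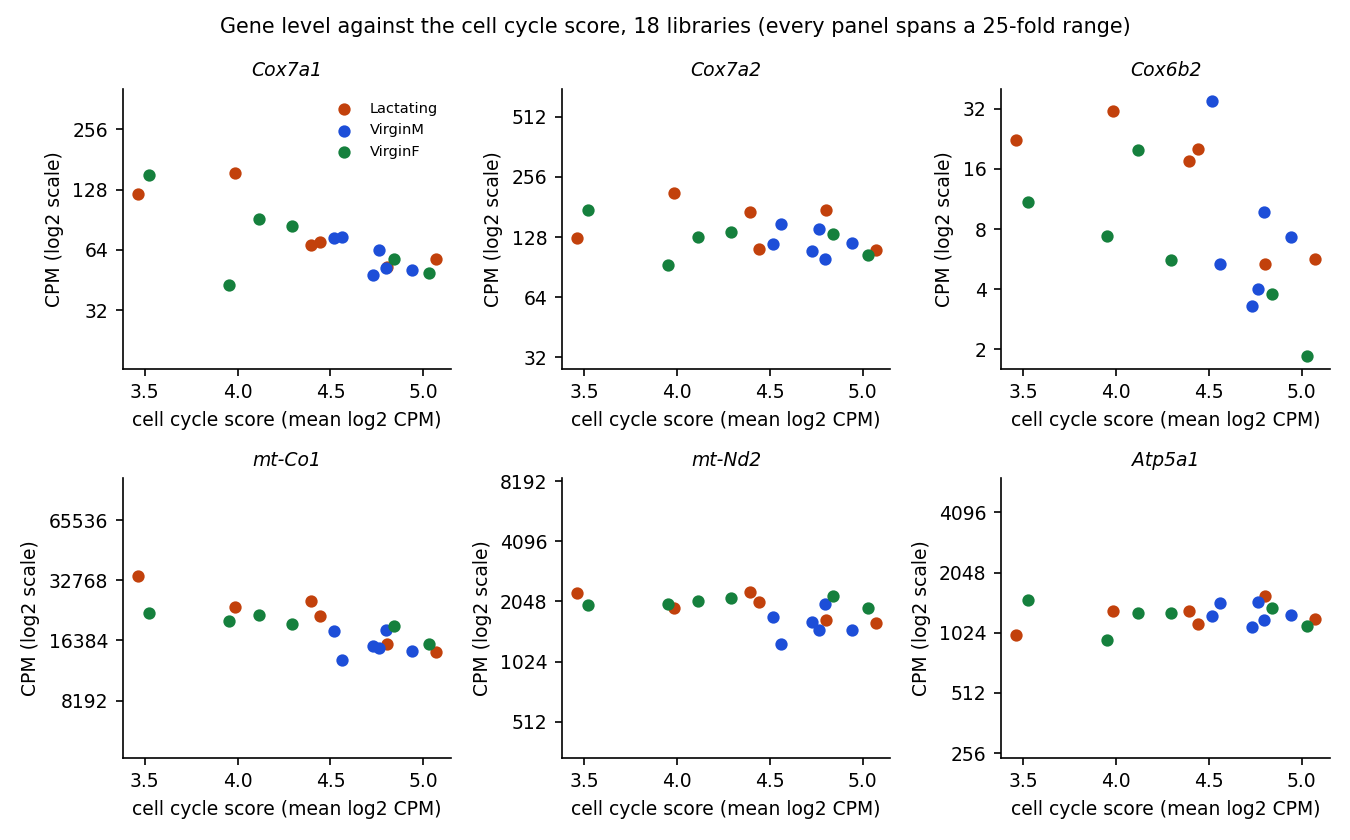
CPM (log2 axis, every panel spanning the same fold range) of 6 genes against the cell cycle score of each library, coloured by group, with TMM factors. Cox7a1 (slope -0.93), Cox6b2 (-1.85) and mt-Co1 (-0.51) decline to the right, whereas Cox7a2 (-0.22), mt-Nd2 (-0.13) and Atp5a1 (0.05) did not pass the test.

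All 3 mitochondrial genes of complex IV passed with TMM factors, and none with library totals alone (-0.18 to -0.12, adjusted p = 0.121 to 0.226), with slopes of -0.51 ± 0.13 for mt-Co1 (edgeR adjusted p = 0.00439), -0.51 ± 0.14 for mt-Co2 (adjusted p = 0.00578) and -0.43 ± 0.12 for mt-Co3 (adjusted p = 0.0069). Of the 7 complex I genes, mt-Nd3 (-0.46 ± 0.13, adjusted p = 0.00717) and mt-Nd6 (-0.92 ± 0.36, adjusted p = 0.0452) passed. Of 27 alternatives mt-Nd6 was called in 13 (adjusted p up to 0.185), and the call was lost without any 1 of lactating 1, 2, 3 and 5, virgin female 1, 2, 3, 4 and 6 and virgin male 4. The mt-Nd3 call was lost in 3 alternatives. The other 5 did not, from -0.20 ± 0.11 for mt-Nd1 to 0.02 ± 0.16 for mt-Nd4l. The slope of mt-Cytb was -0.19 ± 0.11, that of mt-Atp6 -0.31 ± 0.13 and that of mt-Atp8 0.02 ± 0.15, none of which passed. Differences between these slopes were not tested. Of the mitochondrial genes that passed, all but mt-Nd6 have copies on chromosome 1, as do mt-Atp6, mt-Nd4 and mt-Nd4l, so their levels are uncertain. For mt-Co1 the ratio of copy to gene ran from 0.32 to 0.503 between libraries. The 13 are cut from long transcripts that cover the mitochondrial genome. In lactating 1, at the lowest score, mt-Co1 stood at 34300 and mt-Nd4l at 643 CPM, and in lactating 2, at the highest, at 14300 and 516 CPM.

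Among the nuclear genes, complex I held 6 of the 9 calls, and all 6 were accessory subunits, or 21.4% of 28, beside the 22% of all genes called lower. They were Ndufa6 (-0.45 ± 0.12, edgeR adjusted p = 0.0039), Ndufa11 (-0.45 ± 0.15, adjusted p = 0.0217), Ndufa2, Ndufa1, Ndufb3 and Ndufa3 (-0.47 to -0.34, adjusted p = 0.0356 to 0.0465). The 28 accessory subunits had a median slope of -0.21, and the 7 nuclear core subunits a median of 0.007 with 0 called. With library totals alone the accessory subunits had 2 calls and the core subunits 3, all higher, where 7094 of all 15572 genes were called higher. Relative to the median of all genes, the accessory and core medians were then -0.18 and -0.01. Of 27 alternatives Ndufa6 was called in 25, Ndufa11 in 22, Ndufa1 and Ndufa2 in 20, Ndufb3 in 12 and Ndufa3 in 7. Ndufs1, the large iron-sulfur core subunit, had the highest slope of the set, 0.17 ± 0.09 (adjusted p = 0.133), or 0.35 with library totals alone (adjusted p = 0.000207). Complex III held 1 call, Uqcrb (-0.43 ± 0.14, adjusted p = 0.0186), and complex IV the remaining 2, Cox7a1 and Cox6b2. All 14 nuclear genes of complex IV had a negative slope (50.2% of all genes), with a median of -0.27, where library totals alone left 7 negative. None of the 4 complex II genes and none of the 17 complex V genes passed, with medians of -0.15 and -0.24, and 1 and 5 of them had an unadjusted p under 0.05, beside 52% of all genes.

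The slopes of the nuclear genes followed the length of their coding sequence. Across the 78 genes, which are not independent replicates and share libraries, Spearman's rho between coding length and slope was 0.538, beside 0.16 across 12693 tested genes with a coding length. The 26 shortest, with 156 to 324 coding bases, had a median slope of -0.30, and 333 other genes in that length range -0.12. The 26 longest, with 525 to 2181 bases, had a median of -0.08, and 8144 other genes of that range -0.02. The spread within groups followed length too, with a rho of -0.637 across the 78 genes and -0.0221 across all. The short members had a median SD of 0.327 on the log2 scale and the long members 0.244, beside 0.351 and 0.278 in the other genes of those length ranges. At the ends stood Atp5e, the shortest, with a slope of -0.47 ± 0.20 (edgeR adjusted p = 0.0593), and Sdha, among the longest with 1992 bases, with a slope of 0.05 ± 0.10. The part of length in the contrast of core with accessory subunits was not tested.

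**Figure D5:**
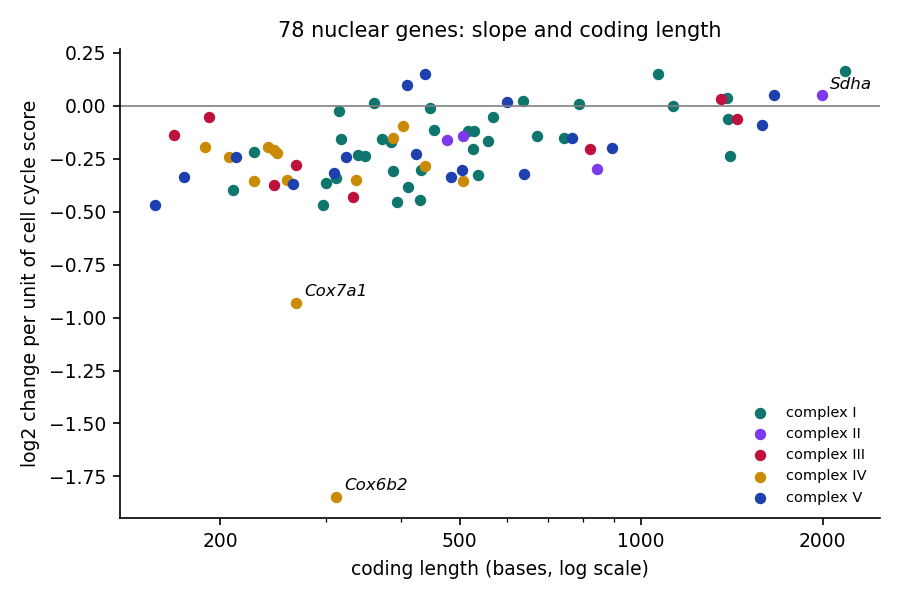
Slope on the cell cycle score (log2 change per unit) against coding length (bases, log axis) for the 78 nuclear genes, coloured by complex. Points rise to the right (Spearman's rho 0.538), Cox7a1 (-0.93) and Cox6b2 (-1.85) lie far below the rest, and Sdha (0.05) is at the long end.

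Genes that build and serve the complexes gave 0 calls in any group comparison with edgeR, and had calls in both directions along the cell cycle score. The other tools were not counted over these lists. Each list held 14 to 45 genes, of which 0 to 5 had an unadjusted p under 0.05 in lactating against virgin females (6.44% of all genes), 1 to 4 in virgin males against virgin females (8.32%) and 3 to 6 in lactating females against virgin males (15.9%). Of 24 tested genes of mitochondrial transcription, RNA handling and maintenance, 14 passed as higher and 3 as lower at a higher score (22.1% and 22% of all genes), with a median slope of 0.30. Lrpprc, which stabilises mitochondrial mRNAs, led with 0.74 ± 0.06 (edgeR adjusted p = 1.94e-08), on 38.6 to 88.7 CPM in lactating females, 75.1 to 91.4 CPM in virgin males and 41.4 to 89.6 CPM in virgin females. Tfam, the packaging and transcription factor of mitochondrial DNA, had a slope of 0.38 ± 0.07 (adjusted p = 0.000319). Of the 24, 19 passed as higher and 0 as lower with library totals alone, where 7094 of all 15572 genes passed as higher and 1214 as lower. Relative to the median of all genes, the median of the 24 was 0.30 with TMM factors and 0.23 without. Of 45 assembly factors 11 passed as higher and 7 as lower, or 40% in all, beside 44.1% of all genes. Among those called were Ndufaf4 for complex I (0.67 ± 0.13, adjusted p = 0.000335) and the copper carriers of complex IV, Sco2 (-0.87 ± 0.11, adjusted p = 9.99e-06) and Cox17 (-0.74 ± 0.13, adjusted p = 0.000184). Of 23 electron carriers and partners 4 passed as higher and 8 as lower, or 52.2% in all. Cytochrome c, Cycs, was at -0.51 ± 0.18 (adjusted p = 0.0273) and the nucleotide carrier Slc25a5 at -0.57 ± 0.12 (adjusted p = 0.00124). Of 17 citric acid cycle genes 4 passed as higher and 5 as lower, or 52.9% in all, with citrate synthase, Cs, at -0.51 ± 0.10 (adjusted p = 0.00032). The assembly factors had, with library totals alone, 25 higher and 2 lower calls, the carriers 9 and 1 and the citric acid cycle genes 10 and 1. All 15572 genes had 7094 and 1214. The call of Cycs was lost (-0.20, adjusted p = 0.183).

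Of 14 regulators of these genes, 3 passed as higher and 1 as lower along the score, or 28.6% in all, beside 44.1% of all genes. Esrrg, an orphan receptor of the ERR family, had a slope of 1.18 ± 0.12 (edgeR adjusted p = 8.37e-07) on levels of 1.71 to 14.3 CPM, and Pprc1, a coactivator of the PGC-1 family, 1.10 ± 0.14 (adjusted p = 5.49e-06). Esrra, which encodes ERR alpha, had the call in the other direction, -0.32 ± 0.11 (adjusted p = 0.0244), which was lost with library totals alone (-0.03, adjusted p = 0.792). In lactating against virgin females 13 of the 14 had a log2 difference below 0 (50.6% of all genes), with a median of -0.11, and 5 had an unadjusted p under 0.05 (6.44% of all genes). Between groups, the coactivator Ppargc1a had 23.9 to 39.4 CPM in lactating females, against 40.7 to 79.8 CPM in virgin females. Its lactating and virgin female libraries did not overlap, yet the log2 difference of -0.66 ± 0.17 did not pass (edgeR adjusted p = 0.271). The fitted level of Ppargc1a was also lower in virgin males than in virgin females, with a log2 difference of -0.49 ± 0.17 that did not pass either (edgeR adjusted p = 0.565). The ANT carrier Slc25a4 had 16 to 55.9 CPM in lactating females, against 11 to 22.6 CPM in virgin males (0.85 ± 0.23, adjusted p = 0.103), and Higd1a, a complex IV partner, 22 to 47.4 CPM in lactating females, against 16.9 to 23.4 CPM in virgin males (0.65 ± 0.18, adjusted p = 0.115).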

How the data were processed

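The deposited files are raw counts of reads per Ensembl gene, 1 table per library, made by the authors. The submitters' processing notes name HISAT2 2.0.4 with GRCm38, featureCounts (Subread 2.0.0), FastQC 0.11.5 and DESeq2 1.24.0. They give no annotation release, strand option or rule for multi-mapping reads, so genes with near-identical copies or antisense neighbours are uncertain. Library totals and the floor of 3 counts are given in the report, and counts of reads without molecular identifiers cover counting error only.

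Symbols, coordinates and exon lengths came from GENCODE M21 (GRCm38), in which 47310 of 47729 identifiers were found. Promoter windows came from RefSeq (GRCm38.p6). Genes were filtered with filterByExpr and scaled with TMM in edgeR 4.0.16 (R 4.3.3), which left 15572. A quasi-likelihood fit with a mean per group used all 18 libraries, and a further fit added the cell cycle score, the mean log2 CPM (prior count 2) of 35 genes that include no member. P-values were adjusted by Benjamini and Hochberg over 15572 genes, and adjusted p-values are edgeR's unless another tool is named. SE is the absolute log2 change divided by the square root of F. The labels do not say that each library is a separate animal, so p-values reflect only the spread among these samples. Copies were found with BLAST 2.17.0. Alternatives used DESeq2 1.42.0, limma voom 3.58.1, other filters, scalings and covariates, the replicate number as a block, and each library left out. The fits were tested on simulated data.

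The gene set, the other lists and the tests were chosen with earlier results of these data known, so no list was tested as a set and no score was given a p. Named genes were all mitochondrial members, and per complex the 3 smallest p-values in each comparison, called members among them, the 2 highest and the lowest level per kilobase, the complex II genes and the tissue-restricted isoforms. Of other lists up to 3 genes per comparison were eligible. Genes outside this rule, chosen after their values were seen, were Ndufs1, Ndufa3, Ndufb3, Ndufb4, Atp5l, Cox7a2, Cox7c, Tfam, Cycs and Esrra.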

Additional observations from a re-analysis of the deposited data

Results flagged for a closer look

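In groups of 6 libraries, a library was picked out when its gap to the nearest of the others exceeded 0.625 of the group's range. This was applied to 183 groups of values and met 10 times. The groups of values share libraries and are not independent, so this count cannot be set against a rate from chance. The values were set scores and named genes, and some genes were named for a small p in comparisons that include lactating 5. Lactating 5 accounted for 8 of the 10, all high. It had 101 CPM of Ndufa2 (37.7 to 59 CPM in the other lactating libraries), 165 CPM of Ndufa13 (76.9 to 108) and 93.7 CPM of Ndufa11 (40.5 to 57), accessory subunits of complex I. Of complex III it had 354 CPM of Uqcrh (175 to 216) and 342 CPM of Uqcrq (147 to 212). Of complex IV it had 259 CPM of Ndufa4 (144 to 182) and 319 CPM of Cox6c (163 to 214), and of complex V 263 CPM of Atp5e (94.4 to 136). The same library had the highest Malat1, 6816 CPM, and its part was not tested. Sdha, the flavoprotein of complex II, had 529 CPM in lactating 3, where the other lactating libraries had 375 to 426. Cox6b2 had 34.8 CPM in virgin male 5, where the other males had 3.31 to 9.74.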

How the results depend on the processing

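The count of genes called in lactating against virgin females and in virgin males against virgin females was 0 under all 28 alternatives, and in lactating females against virgin males it was 0 under 27 and 1 with DESeq2. The 14 calls along the cell cycle score became 36 with voom, 41 with a crypt stem score in place of the cell cycle score, 32 without virgin female 2 and virgin male 6 together, and 7 to 32 when each library was left out in turn. Cox6b2 and Cox7a1 were called in 26 of 27 alternatives, all but the replicate block, and mt-Co1, mt-Co2, mt-Co3 and Ndufa6 in 25, all but the block and library totals without TMM factors. The labels do not say whether the replicate numbers pair the samples. Same-numbered libraries had correlations of -0.219 to 0.477 after group means were removed, with 7 of 18 over 0.1 and 4 of 18 best with their own number. These correlations also carry the cell makeup of the libraries, so they cannot decide whether the numbers mark pairs. A fit with the number as a block gave 0 calls in each group comparison and 0 along the score. Over the 91 genes and 27 alternatives, the 14 called genes lost 85 calls in all and 40 other genes gained 125. Set differences moved by less than the spread between libraries throughout. The nuclear difference between lactating and virgin females ran from 0.039 to 0.237 when a library was left out, and the mitochondrial difference between virgin males and virgin females from -0.40 to -0.28. Under the other alternatives this mitochondrial difference ran from -0.343 to -0.165. That between lactating females and virgin males, 0.327 in the main fit, ran from 0.132 to 0.347 under them. Leaving mitochondrial genes, their nuclear copies and Gm42418 out of the scaling was chosen after seeing the data and gave 11 calls along the score. Library totals without TMM factors, also chosen afterwards, gave 13, of which 11 were higher, beside 7094 higher calls among all 15572 genes. Library totals alone turned the nuclear difference to 0.156 in virgin males against virgin females, from the TMM value of -0.016. In lactating females against virgin males it turned to -0.032, from 0.163.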
